A study of Rattus norvegicus with 12 samples.

Results

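Cdx1, Cdx2, Foxa1, Foxa2, Foxa3, Hnf4a, Klf4 and Klf5 are transcription factors that hold the identity of the intestinal epithelium. Their values were read in 12 single-colour arrays of rat colonic epithelium as the gene spots that carry one of these 8 names. They are 8 of the 19423 gene names on the array, read by 10 probes. A high-protein group and a normal-protein group had 6 replicate arrays each, from male Wistar rats of 180 to 200 g that ate their diet for 6 weeks. The strain, sex, tissue and dye (Cy3) were shared by both groups, and the labels name no genotype, transgene or pooling. The labels do not tie replicates to animals, so p-values measure only the spread between these arrays, which may be technical. The study's question was how colonic transcripts respond to more dietary protein.

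Caudal factors (Cdx1 and Cdx2) specify intestinal rather than gastric or oesophageal epithelium and switch on enterocyte and goblet cell genes. The Foxa proteins open chromatin in endoderm-derived tissues and act on mucus and hormone genes of secretory cells. Hnf4a is a nuclear receptor that maintains enterocyte genes for fat transport and the brush border. Klf4 is highest in differentiated surface and goblet cells, where it restrains division, and Klf5 is highest in dividing crypt cells. Hoxb13 and Hoxb6 are homeobox genes whose expression marks position along the hindgut: Hoxb13 is a gene of its far end, and Hoxb6 of more anterior parts.

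Between 42.67% and 55.86% of an array's gene spots carried the good flag, and 12 arrays limit how small a difference can be seen. All values below are quantile-normalized log2 intensities. A probe entered the tests if a share of 0.5 or more of its spots had the good flag on 6 or more arrays, and 7 of the 8 factors passed. All 10 epithelial markers (such as Epcam, Cdh1 and Krt8) were tested, with mean levels of 11.78 to 12.52 in high-protein arrays and 11.88 to 12.58 in normal-protein arrays. Of 11 smooth muscle markers, 10 were also tested, at 10.46 to 11.48 in high-protein arrays and 11.15 to 11.73 in normal-protein arrays, so the samples hold muscle transcripts beside epithelial ones. In such bulk samples, fewer cells of a type and less RNA per cell cannot be told apart.

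Foxa2 was the factor that varied most between arrays and the one that followed the Hox genes. Its level was lower on arrays with more Hoxb6 signal and higher on arrays with more Hoxb13 signal, and both slopes passed the test over all features. No factor passed the test for diet. Klf4 and Klf5 had slopes with the same signs as those of Foxa2, without passing. Promoter windows from RefSeq (GRCr8) were matched for 7 of the 8 factors, all but Foxa1. Those of Foxa2, Klf4 and Klf5 are printed because these 3 factors had the smallest p-values for a slope on Hoxb6. The Foxa2 window is chr3:155927509-155927758 on the minus strand, the Klf4 window chr5:75078593-75078842 on the minus strand, and the Klf5 window chr15:82471831-82472080 on the plus strand. Each is the 250 bases before the annotated start, written 5′ to 3′ along the gene's strand, with capitals where the letters ATAAA, the core shared by caudal and Hox13 motifs, occur on either strand.
Foxa2: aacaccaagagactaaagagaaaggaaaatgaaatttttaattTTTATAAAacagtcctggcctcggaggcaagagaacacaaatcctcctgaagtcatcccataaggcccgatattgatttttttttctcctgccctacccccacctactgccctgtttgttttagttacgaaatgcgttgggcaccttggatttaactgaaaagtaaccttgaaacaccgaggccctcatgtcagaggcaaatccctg
Klf4: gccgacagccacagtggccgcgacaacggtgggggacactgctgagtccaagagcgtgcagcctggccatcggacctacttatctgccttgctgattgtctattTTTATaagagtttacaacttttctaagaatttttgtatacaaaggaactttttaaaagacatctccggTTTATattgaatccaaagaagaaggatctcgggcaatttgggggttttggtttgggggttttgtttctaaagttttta
Klf5: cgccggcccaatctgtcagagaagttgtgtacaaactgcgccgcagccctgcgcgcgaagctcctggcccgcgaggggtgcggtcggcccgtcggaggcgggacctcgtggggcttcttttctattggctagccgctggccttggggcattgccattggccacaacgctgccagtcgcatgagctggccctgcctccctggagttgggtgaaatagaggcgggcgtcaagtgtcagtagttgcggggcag
The Foxa2 window held 2 ATAAA matches, which overlap each other on opposite strands. The Klf4 window held 2 matches and the Klf5 window 0. Among windows not printed, those of Foxa3 and Cdx1 held 1 match each, and those of Cdx2 and Hnf4a held 0. Such a match stood in 39.3% of 33469 promoter windows of this length, and it is a description of letters only. A forkhead motif (TGTTTAC or TGTTTGC, both strands) was found in none of these 3 windows and once in that of Cdx2, against 7.2% of all windows.

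Among the caudal factors, Cdx1 was flagged good on 11 arrays and Cdx2 on all 12. Cdx1 ran from 9.51 to 10.37 with a median of 9.89 in high-protein arrays, and from 9.95 to 10.61 with a median of 10.19 in normal-protein arrays. Those ranges overlapped, but the lowest 4 Cdx1 values of the study, 9.51, 9.79, 9.86 and 9.92, were all on high-protein arrays. The other 2 high-protein arrays lay inside the normal-protein range. Cdx2 ran from 10.72 to 12.11 with a median of 11.76 in high-protein arrays, and from 11.83 to 12.21 with a median of 12.11 in normal-protein arrays. The lowest 4 Cdx2 values of the study, 10.72, 11.40, 11.75 and 11.76, were all on high-protein arrays, while the other 2 high-protein arrays lay inside the normal-protein range.

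Among the forkhead factors, Foxa2 was read by a probe printed in 10 spots, whose SD within an array was 0.117 to 0.323. In the high-protein replicates 1 to 6, Foxa2 had values of 9.06, 9.13, 7.45, 7.66, 9.33 and 8.90. In the normal-protein replicates 1 to 6, it had values of 8.72, 8.70, 8.45, 7.80, 8.20 and 6.83. The range over all arrays was 2.50 log2 units, and low arrays occurred on both diets.

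Foxa1 was dim. Its brighter probe ran from 6.47 to 7.33 with a median of 6.70 in high-protein arrays, where 5 of 6 spots were flagged good, and from 6.31 to 6.57 with a median of 6.48 in normal-protein arrays, where 2 of 6 were. The highest value, 7.33 on high-protein replicate 1, came from a spot that was not flagged good. The other Foxa1 probe ran from 5.78 to 6.21 and was flagged good on 0 of 12 arrays.

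Foxa3 ran from 6.93 to 7.74 with a median of 7.39 in high-protein arrays, with 4 of 6 spots flagged good. It ran from 6.95 to 8.04 with a median of 7.32 in normal-protein arrays, with 3 of 6 flagged good. The groups overlapped almost entirely.

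Hnf4a was read by 1 probe, and its spot was flagged good on 0 of 12 arrays. Its mean pixel was 46 to 68 intensity units in high-protein arrays and 47 to 71 in normal-protein arrays, over local backgrounds of 33 to 41 units. Its level is therefore only a bound, no fold change is given, and the probe does not show whether Hnf4a was expressed. Among 22 genes taken as regulated by Cdx factors or Hnf4a, 14 were tested. Of its 4 apolipoprotein genes, Apoa1 was flagged good on 10 arrays, Apoc3 on 4, and Apoa4 and Apob on 0. The fatty acid carriers Fabp1 and Fabp2 were flagged good on all 12.

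Klf4 ran from 9.67 to 11.62 with a median of 11.27 in high-protein arrays, and from 10.58 to 11.70 with a median of 11.37 in normal-protein arrays. A single array on each diet stood low: high-protein replicate 3 at 9.67 and normal-protein replicate 6 at 10.58. Klf5, read by a probe in 10 spots, ran from 10.38 to 10.76 with a median of 10.51 in high-protein arrays, and from 9.86 to 10.61 with a median of 10.37 in normal-protein arrays. The Klf5 low of 9.86 was again normal-protein replicate 6. The other Klf5 probe had its lowest value on the same array, 8.56, against 9.58 to 10.18 on the other 11 arrays.

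**Figure D1:**
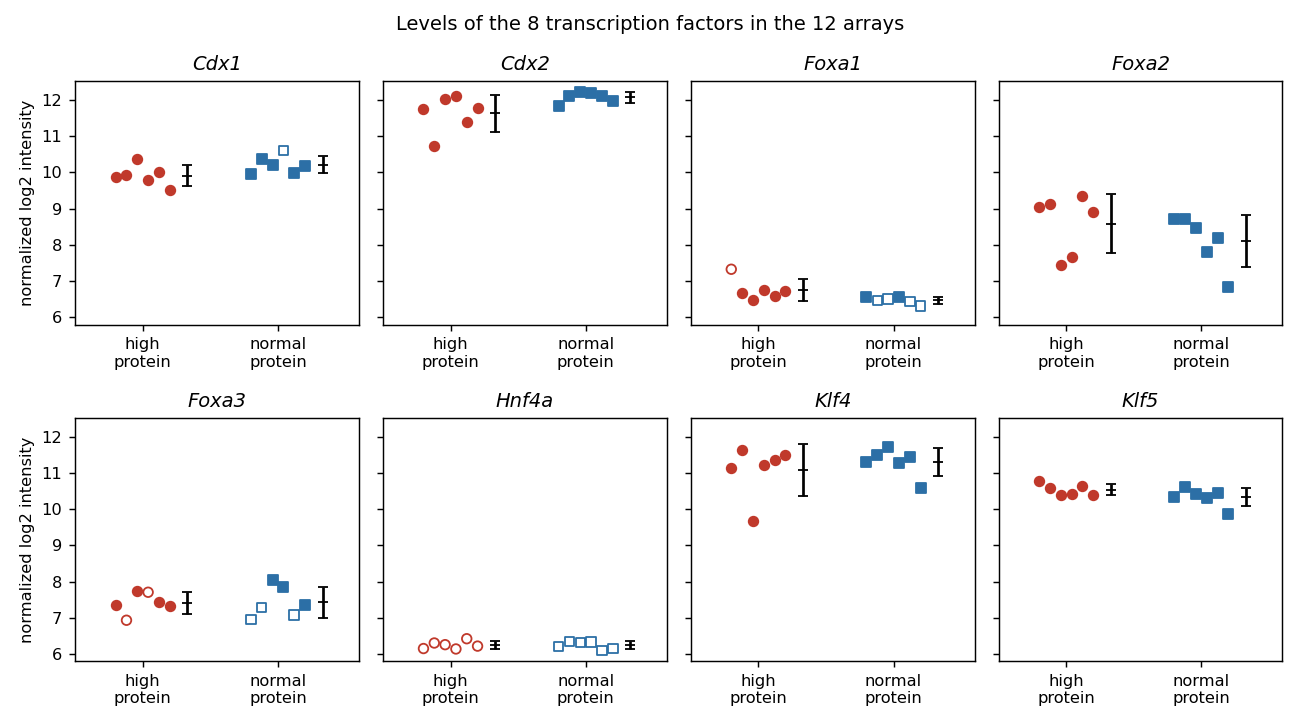
Normalized log2 intensity of the 8 factors in the 6 high-protein arrays (red circles, left) and the 6 normal-protein arrays (blue squares, right), with bars for mean ± SD and open symbols for spots not flagged good. Foxa2 has the widest range (6.83 to 9.33), Hnf4a has only open symbols, and the diets overlap for every factor.

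The comparison of diets was fitted with limma over 11960 features, which are named genes and probes without a name. At an adjusted p of 0.05 it called 0 features (0% of those tested), and 797 features (6.66%) had an unadjusted p under 0.05. None of the 7 tested factors passed, and 2 of the 7, Cdx2 and Foxa1, had an unadjusted p under 0.05. Foxa1 passed the filter mainly through the high-protein arrays, where it is higher, so this count is not set against the share of all features. The arrays of the diets overlapped for each factor, while they did not overlap for 45 features (0.376%).

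The difference was -0.44 ± 0.20 (SE) log2 for Cdx2, with an adjusted p of 0.74. Cdx2 averaged 11.63 ± 0.51 in high-protein arrays and 12.07 ± 0.15 in normal-protein arrays (SD, n = 6 each). The exact two-sided permutation p for Cdx2 alone was 0.0346, not adjusted for other features. Without high-protein replicate 2 the Cdx2 difference was -0.26. Within slides, each of which held 2 arrays of either diet, it was -0.78, -0.10 and -0.44. With the Hoxb13 level as a covariate the Cdx2 difference was -0.32, with the Hoxb6 level -0.50 and with both -0.28, and none of these passed.

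Cdx1 averaged 9.91 ± 0.28 in high-protein arrays and 10.21 ± 0.24 in normal-protein arrays (SD, n = 6 each), a difference of -0.30 ± 0.14 (SE) with a limma adjusted p of 0.74. Within slides it was -0.19, -0.43 and -0.30. With both Hox levels as covariates it was -0.13. The exact two-sided permutation p for Cdx1 alone was 0.0779, not adjusted for other features.

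Foxa1 averaged 6.75 ± 0.30 in high-protein arrays and 6.47 ± 0.10 in normal-protein arrays, a difference of 0.28 ± 0.12 (SE) with a limma adjusted p of 0.74. Foxa1 passed the filter mainly through the high-protein arrays, where it is higher, so this difference is a description. It was 0.61 with plain background subtraction, 0.53 in the series table and 0.15 with arrays scaled to their 75th percentile. Without high-protein replicate 1, whose spot was not flagged good, the Foxa1 difference was 0.17. Within slides it was 0.47, 0.36 and 0.012.

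Foxa2 averaged 8.59 ± 0.82 in high-protein arrays and 8.12 ± 0.72 in normal-protein arrays, a difference of 0.47 ± 0.39 (SE) with a 95% interval of -0.38 to 1.32. Its limma adjusted p was 0.81. Without normal-protein replicate 6 it was 0.21. Hoxb13 averaged 10.49 ± 2.89 in high-protein arrays and 8.94 ± 2.72 in normal-protein arrays (SD, n = 6 each), a difference smaller than either SD, and 4 high-protein and 2 normal-protein arrays held the 6 highest levels. With the Hoxb13 level as a covariate the Foxa2 diet difference was 0.083, with the Hoxb6 level it was 0.81, and neither passed.

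For Klf5 the difference was 0.20 ± 0.12 (SE), for Klf4 -0.21 ± 0.29 and for Foxa3 -0.01 ± 0.19. Their limma adjusted p-values were 0.74, 0.87 and 0.99. The 95% interval ran from -0.85 to 0.42 for Klf4 and from -0.43 to 0.41 for Foxa3, so differences of that size remain possible in either direction. Without high-protein replicate 3 the Klf4 difference was 0.068, and without normal-protein replicate 6 the Klf5 difference was 0.11. In the series table, where normal-protein replicate 6 stood at 7.08, the Klf5 difference was 0.73. Median scaling in place of quantile normalization put the median difference of all features at 0.099, and the differences at -0.15 for Cdx1, -0.27 for Cdx2, 0.37 for Klf5 and -0.052 for Klf4, with no feature passing.

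Dependence on the Hox genes was read as the slope of each feature on the array's Hoxb13 or Hoxb6 level, with diet as a term, in log2 per log2 unit. Hoxb13 ran from 6.12 to 12.56 in high-protein arrays and from 5.83 to 12.05 in normal-protein arrays. It fell into 6 arrays at 11.996 or above and 6 at 5.83 to 9.32, and its spot was flagged good on 9 arrays, so the lowest levels are bounds. Hoxb6 was at 10.82 to 10.95 on high-protein replicates 3 and 4 and normal-protein replicate 6, and at 6.51 to 7.49 on the other 9 arrays. Because the arrays fall into such clusters, no correlation with a Hox gene over all 12 arrays is given. The 3 arrays with much Hoxb6 were all low for Hoxb13.

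Foxa2 had a slope of 0.25 ± 0.034 (SE) on Hoxb13, with a 95% interval of 0.18 to 0.32 and a limma adjusted p of 0.0018. Of the 7 tested factors it was the 1 that passed, while 400 of 11959 features passed (3.34%), 233 rising with Hoxb13 (1.95%) and 167 falling (1.40%). Its 6 values on the arrays with Hoxb13 at 11.996 or above were 8.70 to 9.33, and on the other 6 arrays 6.83 to 8.45. Those ranges did not overlap. All 6 high-Hoxb13 arrays lay above the other 6 for 1.72% of features.

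On Hoxb6 the Foxa2 slope was -0.40 ± 0.050 (SE), with a 95% interval of -0.51 to -0.29 and a limma adjusted p of 0.0021. Again 1 of the 7 passed, while 448 of 11959 features passed (3.75%), 271 falling with Hoxb6 (2.27%) and 177 rising (1.48%). Foxa2 was at 6.83 to 7.66 on the 3 arrays with much Hoxb6, and at 7.80 to 9.33 on the other 9. The 3 arrays lay below all others for 2.51% of features.

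Both Foxa2 calls held when any 1 array was left out, with slopes of 0.22 to 0.27 on Hoxb13 and -0.41 to -0.38 on Hoxb6. The Hox levels carry overlapping information: with both in the same fit the Foxa2 slopes were 0.14 on Hoxb13 and -0.24 on Hoxb6, with limma adjusted p-values of 0.21 and 0.15. Which of them Foxa2 followed cannot be told apart here. The Hoxb6 slope rests on 3 arrays with high levels, and its call ended without the 2 arrays farthest from the median (-0.38, adjusted p 0.16) and without the diet term (-0.34, adjusted p 0.072). Both Foxa2 calls also ended with the replicate number as a block, although the labels do not say that a number marks a shared source. Within slides the Foxa2 slopes were taken over 4 arrays each, without a diet term. On Hoxb13 they were 0.13, 0.32 and 0.22, and on Hoxb6 -0.35 and -0.25 in the 2 slides where Hoxb6 varied. The slope of 0.13 rests on the low Hoxb13 of normal-protein replicate 3 alone. That of -0.25 rests on the high Hoxb6 of high-protein replicate 3 alone.

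Cell type markers were read beside these slopes. All 10 epithelial markers had slopes below 0 on Hoxb6 and above 0 on Hoxb13, the signs that Foxa2 had. Their medians were -0.065 and 0.021, with 0 calls, against -0.0040 and 0.0016 over all features. Their mean level was 11.78 to 12.52 on the 3 arrays with much Hoxb6 and 12.10 to 12.58 on the other 9. With the epithelial mean as a covariate the Foxa2 slopes were 0.23 on Hoxb13 and -0.40 on Hoxb6, with limma adjusted p-values of 0.0046 and 0.014. With the smooth muscle mean as a covariate they were 0.24 and -0.43, with adjusted p-values of 0.0039 and 0.0020. These covariates were chosen after seeing the data. Of 10 tested smooth muscle markers, Des fell with Hoxb6 (-0.26 ± 0.061, SE, limma adjusted p 0.038). Of 5 tested endothelial markers, Kdr rose with Hoxb6 (0.23 ± 0.059, SE, limma adjusted p 0.049). Kdr was at 11.08 on normal-protein replicate 6, 10.01 and 9.59 on high-protein replicates 3 and 4, and 9.06 to 9.69 on the other 9 arrays. Endothelial means were 8.88, 8.30 and 7.97 on those 3 arrays in the same order, and 7.84 to 8.002 on the other 9. The part of the endothelial means in the Foxa2 slopes was not tested. Of 7 markers of enteric neurons and glia, 4 were tested and 0 passed. Their summed intensity was 4079 on normal-protein replicate 6, the array with the lowest Foxa2 and Klf5, 1200 and 729 on high-protein replicates 3 and 4, and 701 to 1076 on the other 9. S100b, a glial marker, was at 11.72 on normal-protein replicate 6 and at 6.78 to 8.15 on the other 11 arrays, with a slope of 0.53 ± 0.16 (SE, limma adjusted p 0.082) on Hoxb6. Without that array the Foxa2 slopes were 0.22 on Hoxb13 and -0.41 on Hoxb6, with limma adjusted p-values of 0.0023 and 0.023.

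**Figure D2:**
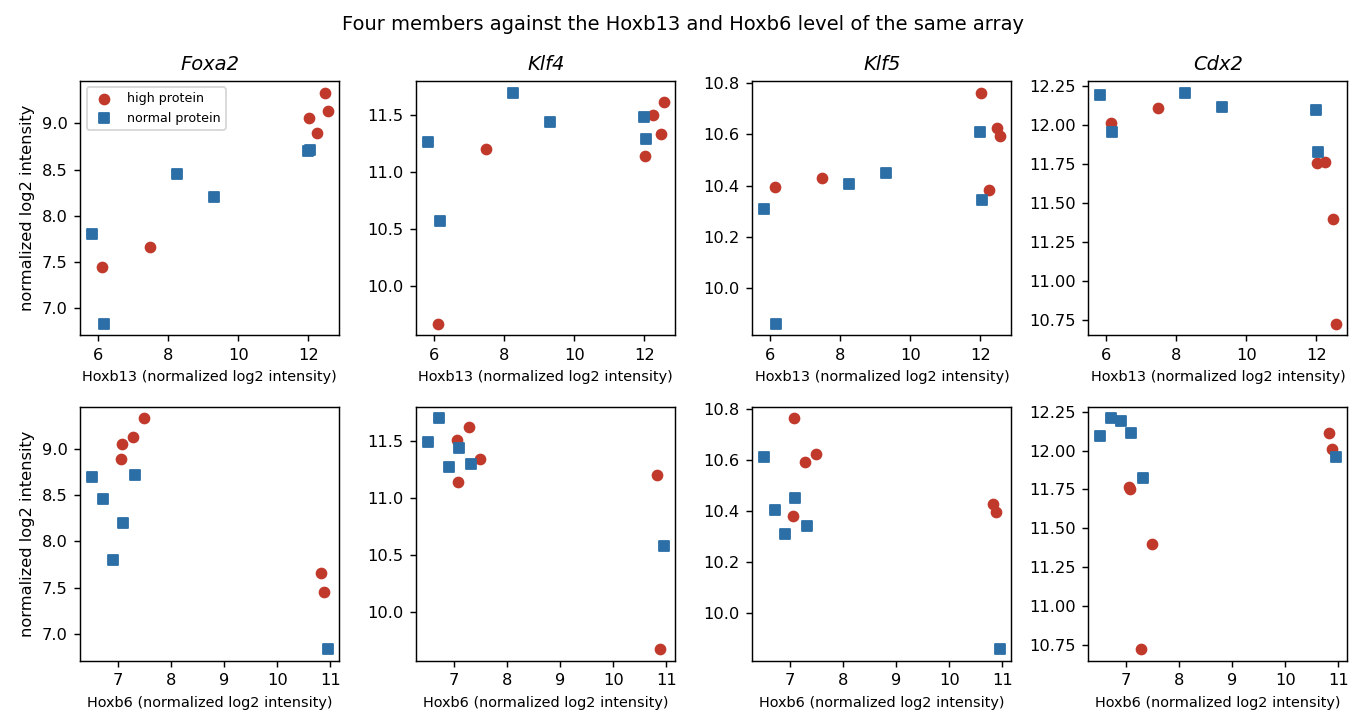
Normalized log2 intensity of Foxa2, Klf4, Klf5 and Cdx2 (vertical axes) against the Hoxb13 level (top row) and the Hoxb6 level (bottom row) of the same array, for high-protein (red circles) and normal-protein arrays (blue squares). Foxa2 is at 8.70 to 9.33 on the 6 arrays with Hoxb13 at 11.996 or above and at 6.83 to 7.66 on the 3 arrays with much Hoxb6.

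Klf4 had a slope of -0.24 ± 0.062 (SE) on Hoxb6, whose limma adjusted p of 0.051 missed the threshold. Its level was 9.67, 11.20 and 10.58 on the 3 arrays with much Hoxb6, and 11.14 to 11.70 on the other 9. With the epithelial mean as a covariate the Klf4 slope was -0.14 (adjusted p 0.20), and with the smooth muscle mean it was -0.32 (adjusted p 0.010). The adjusted p was 0.041 with arrays scaled to their 75th percentile in place of quantile normalization. The call also turned on single arrays: without high-protein replicate 4 the Klf4 slope was -0.32 (adjusted p 0.0074), and without high-protein replicate 3 it was -0.15. On Hoxb13 the Klf4 slope was 0.14 ± 0.045 (adjusted p 0.14).

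Klf5 had slopes of -0.090 ± 0.027 (SE) on Hoxb6 and 0.045 ± 0.020 on Hoxb13, with limma adjusted p-values of 0.087 and 0.31. Its other probe gave slopes of the same signs, -0.14 and 0.053. Without normal-protein replicate 6 the Klf5 slope on Hoxb6 was -0.052.

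Foxa1, Foxa3 and the caudal factors passed on neither Hox gene. Foxa3 had a slope of -0.090 ± 0.029 (SE) on Hoxb13, opposite in sign to that of Foxa2, with a limma adjusted p of 0.14. The Cdx2 slope on Hoxb13 was -0.074 ± 0.033 and that of Cdx1 was -0.048 ± 0.025, with adjusted p-values of 0.32 and 0.42. Foxa1 had a slope of 0.024 ± 0.024 (adjusted p 0.71). On Hoxb6 the slopes of Cdx2, Foxa3, Cdx1 and Foxa1 were 0.076, 0.052, 0.030 and -0.057, with adjusted p-values from 0.41 to 0.78.

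Relations within each Hoxb13 cluster of 6 arrays were computed for the 7 tested factors, which makes 14 relations. Foxa2 had a Pearson r of 0.77 (exact permutation p 0.088) with Hoxb13 within the 6 high arrays, with an adjusted p of 0.50. The Spearman rho was 0.77 (exact permutation p 0.10), and r without the 2 arrays farthest from the median Hoxb13 level was 0.24. In the 6 low arrays 3 of the Hoxb13 spots were not flagged good, so their order is not readable and no value is given. Cdx2 had an r of -0.88 within the high arrays, with an exact permutation p of 0.0056 and an adjusted p of 0.078. Its rho was -0.83 (exact permutation p 0.058, adjusted p 0.48), and its r without the 2 farthest arrays was -0.53. None of the 14 passed after adjustment over all of them. That adjustment counts the relations in the low arrays, which are not readable, and one over the high arrays alone was not run. It therefore does not settle the relation of Cdx2 in the high arrays. Within those arrays Foxa2 was at 8.72 and 8.70 on normal-protein replicates 1 and 2, and at 8.90 to 9.33 on high-protein arrays. Cdx2 was at 11.83 and 12.10 on the same 2 replicates, and at 10.72 to 11.76 on high-protein arrays. The relations had no diet term, so Hoxb13 and diet were not separated in them.

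**Figure D3:**
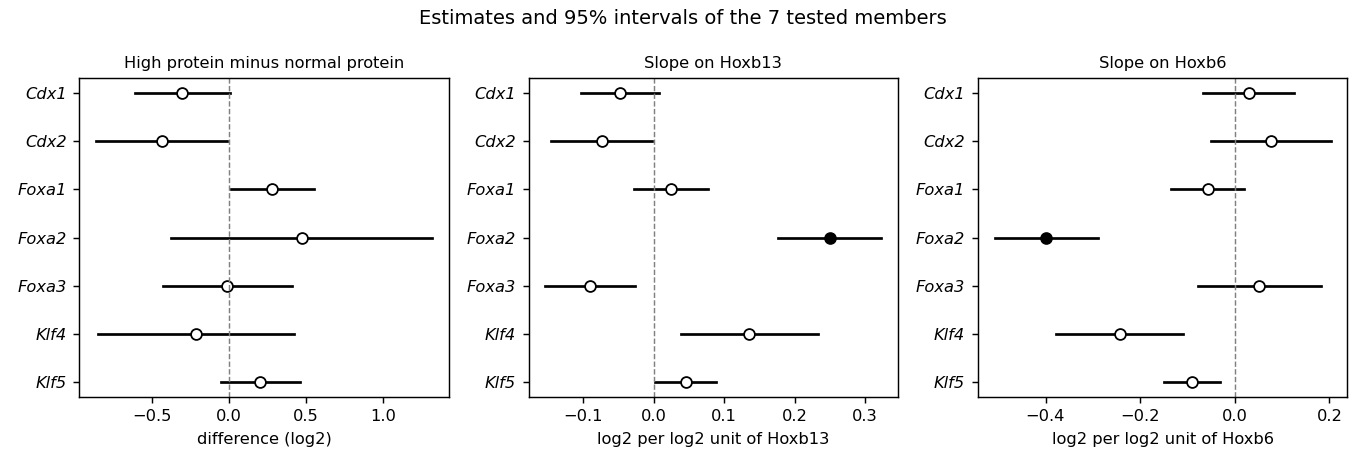
Difference between diets (left, high protein minus normal protein, log2) and slopes on Hoxb13 (centre) and Hoxb6 (right, log2 per log2 unit) of the 7 tested factors, as points with 95% intervals, filled where the adjusted p was under 0.05. Foxa2 has the only filled points, at 0.25 on Hoxb13 and -0.40 on Hoxb6.

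Of 8 genes taken as regulated by Foxa1 or Foxa2, all 8 were tested. On Hoxb6, 3 passed with a slope below 0 and 0 with a slope above 0, against 2.27% and 1.48% of all features. The 8 slopes split evenly, 4 above and 4 below 0, with a median of -0.015. Pyy, the satiety hormone of colonic L cells, had a slope of -0.36 ± 0.063 (SE) with a limma adjusted p of 0.012. Cck, a hormone of small-intestinal I cells, had -0.39 ± 0.071 (adjusted p 0.015). Tff3, a goblet cell peptide that aids repair, had -0.41 ± 0.091 (adjusted p 0.033). Pyy was at 9.15 on normal-protein replicate 6, 10.45 and 10.93 on high-protein replicates 3 and 4, and 10.93 to 11.79 on the other 9 arrays. On Hoxb13, 2 of the 8 passed with a slope below 0 and 0 with one above 0, against 1.40% and 1.95% of all features. The median slope was -0.071, against 0.0016 over all features, and 3 slopes were above 0, those of Tff3 (0.19), Cck (0.16) and Pyy (0.13). The 2 that passed were Sst, the inhibitory hormone of D cells, at -0.19 ± 0.042 (adjusted p 0.028), and Muc2, the main mucin of the colon, at -0.20 ± 0.048 (adjusted p 0.041). Foxa2 rose with Hoxb13 while Sst and Muc2 fell.

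Of the 14 tested genes taken as regulated by Cdx factors or Hnf4a, 4 passed on Hoxb13 with a slope below 0 and 0 with one above 0, against 1.40% and 1.95% of all features. Of the 14 slopes 7 were above 0 and 7 below, with a median of -0.0043. Fabp1, a fatty acid carrier, had a slope of -0.59 ± 0.092 (SE, limma adjusted p 0.0046). Car1, a carbonic anhydrase, had -0.50 ± 0.092 (adjusted p 0.011), and Fabp2, the intestinal fatty acid carrier, had -0.36 ± 0.073 (adjusted p 0.022). Muc2, which both lists hold, is the fourth. On Hoxb6 1 of the 14 rose, Fabp1, at 0.98 ± 0.12 (adjusted p 0.0020). Fabp1 was at 12.11 and 12.48 on high-protein replicates 3 and 4 and at 12.69 on normal-protein replicate 6, against 7.31 to 10.47 on the other 9 arrays. For Cdx1 and Cdx2 themselves no slope passed.

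**Figure D4:**
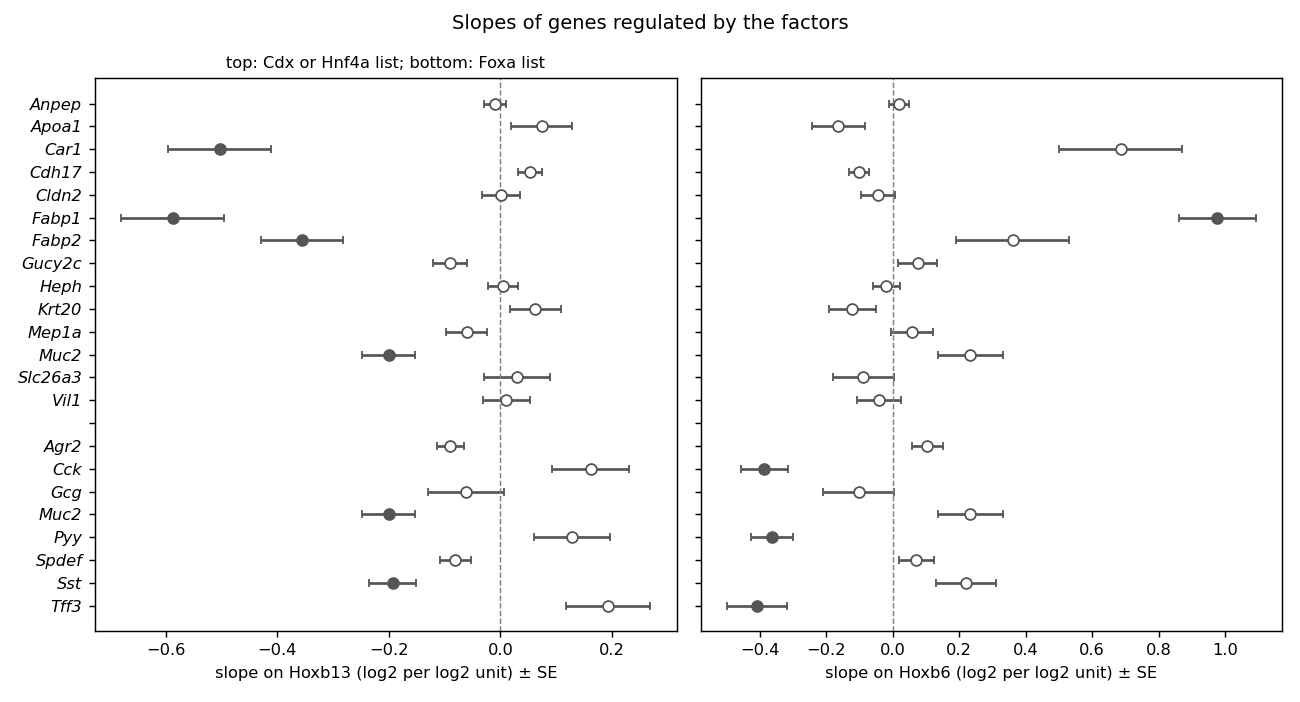
Slopes on Hoxb13 (left) and Hoxb6 (right) of the tested genes taken as regulated by Cdx factors or Hnf4a (top block) and by Foxa1 or Foxa2 (bottom block), with SE bars, filled where the adjusted p was under 0.05. Fabp1 has the largest slope in each panel, -0.59 on Hoxb13 and 0.98 on Hoxb6, and Pyy, Cck and Tff3 are filled below 0 on Hoxb6.

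Of 8 genes taken as regulated by Klf4 or Klf5, 7 were tested, and 0 passed in any of the fits. Odc1, which starts polyamine synthesis, came nearest, with a slope of -0.10 ± 0.026 (SE) on Hoxb13 and a limma adjusted p of 0.059. For diet 0 of the tested genes on any of these 3 lists passed. The median difference was -0.33 for the Cdx and Hnf4a list, -0.40 for the Foxa list and 0.017 for the Klf list. Over all features it was 0.0057. These medians were taken without a Hox level as a covariate. Fabp1, Car1, Fabp2, Muc2 and Sst, which fell with Hoxb13, are among the genes of these lists. The part of the Hox levels in the medians was not tested.

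Among 31 other transcription factors of the gut epithelium, 16 were tested, and 0 passed for diet or on either Hox gene. Gata4 and Pdx1, factors of the proximal gut, were flagged good on 0 arrays. Ascl2, a stem cell factor of the crypt base, had a slope of -0.26 ± 0.071 (SE) on Hoxb6 with a limma adjusted p of 0.065. Nr1i2, the xenobiotic receptor PXR, had the smallest p for diet, with 9.86 ± 0.26 in high-protein arrays and 9.48 ± 0.18 in normal-protein arrays (SD, n = 6 each), a difference of 0.37 ± 0.12 (SE) with an adjusted p of 0.72.

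Within the wider families, 9 of 15 other Klf genes and 8 of 20 other Fox genes were tested. Klf3, a repressor of the family, fell with Hoxb6 at -0.13 ± 0.025 (SE, limma adjusted p 0.022), and 8 of the 9 did not pass. Foxp1, a repressor of the forkhead family, fell with Hoxb6 at -0.22 ± 0.028 (adjusted p 0.0021). It was at 11.69 and 11.29 on high-protein replicates 3 and 4 and at 11.17 on normal-protein replicate 6, against 11.99 to 12.45 on the other 9 arrays. Foxq1, a forkhead factor needed for a gastric mucin in mice, rose with Hoxb13 at 0.16 ± 0.028 (adjusted p 0.0077). Foxq1 was flagged good on 8 of 12 arrays. It was at 6.12 to 6.44 on normal-protein replicates 3 to 6 and at 6.68 to 7.91 on the other arrays. The lowest levels may be bounds, and Foxq1 may have passed the filter through its brighter arrays. Its slope and its diet difference are therefore descriptions. Its diet difference was 0.996 ± 0.27 (SE), with 7.49 ± 0.54 in high-protein arrays and 6.49 ± 0.51 in normal-protein arrays (SD, n = 6 each), and the adjusted p was 0.72.

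Up to 3 named genes most like each factor were taken by Pearson r over the 12 arrays, as a description of arrays that share slides and fall into the Hox clusters above, with no test. Nearest to Foxa2 were Rhbdl2, a rhomboid protease, at 0.969, Duox2, which makes hydrogen peroxide at the mucosal surface, at 0.969, and Mep1b, a meprin subunit, at 0.966. Without normal-protein replicate 6, the lowest Foxa2 array, these values were 0.953, 0.949 and 0.945. Duox2 ranged from 9.71 to 12.69 and Mep1b from 9.002 to 11.94.

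Nearest to Cdx2 was Car2, a cytosolic carbonic anhydrase, at 0.921, and 0.827 without high-protein replicate 2, followed by Gorab and Rnf5. Nearest to Cdx1 were Dcun1d1 (0.923), Megf6 and RT1-N2. Nearest to Klf4 were Sgk1, the aldosterone-induced kinase (0.936, and 0.825 without high-protein replicate 3), Anks4b and Slc25a6. Among those nearest to Klf5 were Ces1e (0.920, and 0.790 without normal-protein replicate 6) and Faah. The likeness of Foxa1 to Lcor (0.886) and Dhx16 rested on 1 array, since that to Lcor was 0.377 without high-protein replicate 1, while that to Tet3 was 0.878 with it and 0.966 without it. Foxa3 was nearest to Cdc42bpb (0.923), Ppp2r5e and Psmb5.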

How the data were processed

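The authors deposited GenePix intensity per spot of Agilent 4x44K rat arrays, not normalized per the file headers, with quality flags and the percent of saturated pixels. The deposited series table holds log2 values, for which the submitters' processing notes name RMA without a version, and its centring is unknown. Its column medians were 4.36 to 4.45, and it served only as an alternative, since its IDs match the scanner values only when moved by 1 row (Spearman 0.965 to 0.988, against 0.109 to 0.123 as given).

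Background was corrected with normexp (offset 50), controls were dropped, arrays were quantile normalized and spots of a probe averaged, and the brightest tested probe stood for a gene. Of 30367 probes 13204 were tested, giving 9466 named genes and 2494 unnamed probes. RefSeq accessions of 18355 of 22031 probes matched the GRCr8 gene table. Limma 3.58.1 in R 4.3.3 fitted diet, and the Hoxb13 or Hoxb6 slope with diet, with Benjamini-Hochberg adjustment over all features and a threshold of 0.05. As a check of the code only, the fits were run on simulated data with independent noise and planted effects larger than those of any factor here. Exact permutation tests used all 924 assignments of arrays to diets, or all orders within a cluster.

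Named genes are the 8 factors, up to 3 genes with the smallest p per list and fit, and the 3 most alike per factor; 2 genes that this rule names are not reported here. Genes named by how many arrays flagged them good, and Muc2 on the Cdx and Hnf4a list, were chosen after their values were seen. The members and lists were chosen with earlier results of these data known. Of 9 cell type lists, those not described (fibroblasts, macrophages, T and NK cells, B and plasma cells, mast cells) had 0 calls in any fit. Arrays came from 3 slides, each scanned once, so slide and scan cannot be told apart. No 2 arrays correlated above 0.986.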

Additional observations from a re-analysis of the deposited data

Results flagged for a closer look

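In each group of 6 arrays, the gap of the highest or lowest value to its neighbour was divided by the group's range, and a ratio above Dixon's critical value for 6 samples stood apart. Of 20 groups examined 3 did so, and chance alone gives about 1 in 20. Foxa1 on high-protein replicate 1 was the highest of its group (0.677), from a spot not flagged good. Klf4 on high-protein replicate 3 was the lowest of its group (0.755). The second Klf5 probe on normal-protein replicate 6 was the lowest of its group (0.667). High-protein replicate 3 and normal-protein replicate 6 both had much Hoxb6 and the lowest epithelial marker means, 11.78 and 11.88, against 12.10 to 12.58 on the other 10 arrays; the part of the epithelial level in these single values was not tested.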

How the results depend on the processing

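The count of features called for diet was 0 in all 28 alternatives. The Foxa2 slopes kept their direction in all 27 refits each. With the replicate number as a replicate block they were 0.346 on Hoxb13 (adjusted p 0.0771) and -0.327 on Hoxb6 (0.103). The labels do not say that a number marks a shared source. Correlations of same-numbered deviations ran from -0.107 to 0.38, and 3 of 6 arrays matched best with their own number, a hint from the data that does not settle a pairing. With both Hox levels together they were 0.136 (0.212) and -0.237 (0.147). On Hoxb6 the slope was -0.338 without a diet term (0.0717) and -0.376 without the 2 arrays farthest from the median (0.156). Within slides, over 4 arrays each and without a diet term, the smallest Foxa2 slopes were 0.135 on Hoxb13 (slide 1) and -0.253 on Hoxb6 (slide 3). Leaving out 1 array gave 0.221 to 0.275 and -0.415 to -0.379.

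Counts of features called moved more. On Hoxb13, 400 became 74 with plain background subtraction, 190 with slide as a block, 18 with the replicate block, 9 with Hoxb6 added and 235 without the 2 farthest arrays, and 159 (without high-protein replicate 3) to 490 on leaving out 1 array. On Hoxb6, 448 became 205 with median scaling, 281 without a filter on dim probes, 85 with slide as a block, 6 with the replicate block, 107 without a diet term, 3 with Hoxb13 added, 35 without the 2 farthest arrays, 156 with the epithelial and 817 with the smooth muscle mean as covariate, and 137 (without high-protein replicate 3) to 713 (without high-protein replicate 4). The cause of these moves was not tested.

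Values that changed sign passed no test. The Foxa3 diet difference was 0.073 with median scaling, 0.088 with the median pixel, 0.127 with Hoxb13 and 0.327 with both Hox levels as covariates and 0.15 in the series table, and -0.107 to 0.111 on leaving out 1 array. That of Klf4 was 0.035 with the epithelial covariate and -0.357 to 0.068 on leaving out 1 array. On Hoxb13, Cdx1 had 0.0024 without the 2 farthest arrays, Cdx2 0.0039 and Foxa3 0.030 with the replicate block, and Foxa1 -0.0067 with Hoxb6 added. On Hoxb6, Cdx1 had -0.062 with Hoxb13 added, -0.019 without the 2 farthest arrays, -0.011 with the epithelial covariate and -0.017 to 0.063 on leaving out 1 array. Cdx2 had -0.026 with Hoxb13 added, and Foxa3 had -0.041 with the replicate block and -0.126 with Hoxb13 added. Dim spots limit Foxa1, Foxa3 and Hnf4a.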
